A study of Mus musculus with 12 samples.

Results

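The nuclear genome supplies most subunits of the mitochondrial respiratory chain, and this account follows those genes in mouse kidney by complex. Members were the protein-coding genes of the deposited table whose symbol begins with Nduf, Uqcr, Cox4i, Cox5, Cox6, Cox7, Cox8 or Atp5, or is Sdha, Sdhb, Sdhc, Sdhd or Cyc1, with a mean read count of at least 50 over 12 libraries. The rule took 91 of the 45777 genes in the table. These were 38 genes of complex I, 8 complex I assembly factors, 4 genes of complex II, 9 of complex III, 15 of complex IV and 17 of complex V. The symbol rule also takes the Ndufaf genes, which encode assembly factors and not subunits, so they are given apart. The 5 matching protein-coding genes under the count limit were Cox7b2 and Cox8c with a mean count of 0, Cox8b with 1.42, Cox4i2 with 15.2 and Cox6a2 with 39.4. Just inside it lay Cox6b2 with 96.8, Ndufa4l2 with 101.2 and Cox7a1 with 272.4. All 91 passed the expression filter and were among the 18730 genes tested.

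The chain sits in the inner mitochondrial membrane. Complexes I and II pass electrons from NADH and succinate to ubiquinone, complex III passes them on to cytochrome c, and complex IV reduces oxygen. Complexes I, III and IV pump protons, and complex V, the ATP synthase, uses the gradient to make ATP. Proximal tubule cells, the bulk of the renal cortex, rely on this oxidative route for solute transport.

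Kidneys came from wild type male C57BL/6 mice, with 3 libraries in each of 4 groups and 1 batch in the labels. The normal group received no cisplatin and no vesicles. The PBS group received cisplatin, a platinum drug toxic to the tubule, intraperitoneally at 9 mg/kg weekly for 5 cycles and then 5 intravenous PBS injections, 1 every 3 days. The EV200 and EV400 groups received the same cisplatin course and then, on the same schedule, 200 or 400 µg of extracellular vesicles from iMSC (the labels' abbreviation). Kidneys were taken 3 days after the last treatment. The mice's age is not given in the labels. Normal mice are not listed as injected, so cisplatin and the injections cannot be told apart. The labels call the 3 libraries of a group biological replicates without naming a mouse for each, so p-values measure only the spread between these samples.

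Libraries held 46.6 to 62.09 M counts. The 15 proximal tubule markers summed to 31870 to 32260 CPM (counts scaled to the library's total and TMM factor, as used throughout) in the normal libraries, as the kidney label requires. The 6 skeletal muscle markers summed to at most 0.837 CPM in any library, with Ckm and Myh4 at 0 in all 12. Library PBS 3 held fat transcripts, with 7 adipocyte markers summing to 115.7 CPM against at most 34.4 CPM in the other libraries. Libraries PBS 2, EV200 3 and EV400 3 stood apart from the others of their groups. On the first principal component, which carried 43.4% of the variance, PBS 2 lay at 83.4 and EV200 3 at 60.5. EV400 3 lay at -51.5 on the second component, where no other library was below -15.7. Results are therefore given with and without these libraries where they move.

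In normal kidneys, levels per transcript length (the authors' deposited TPM) differed by complex. The median member of complex IV stood at 674.4 TPM, of complex V at 492.4, of complex II at 422.6, of complex III at 384.7 and of complex I at 202.4. The complex I assembly factors stood at 21.6 TPM, from Ndufaf5 at 10.3 to Ndufaf8 at 35.4. Atp5b, which encodes the catalytic beta subunit of ATP synthase, was the highest member with 2448 ± 55 TPM (SD, n = 3). The highest in the other complexes were Cox4i1 with 1147 TPM, Uqcrh with 667.6, Ndufb8 with 518.8 and Sdha with 517.1. The 4 complex II genes lay within 1.5-fold of each other. Complex IV spread over 317.7-fold and includes isoforms known from other tissues.

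Isoforms of one subunit differed widely in level. Cox7a2, the ubiquitous isoform, stood at 308.9 ± 52.6 TPM in normal kidneys, and Cox7a1, the heart and muscle isoform, at 25.4 ± 1.83 TPM (SD, n = 3). Cox6b1 stood at 992.2 ± 14.8 TPM and its testis isoform Cox6b2 at 5.46 ± 0.752 TPM. Ndufa4, a complex IV subunit despite its name, stood at 1123 ± 50 TPM and its hypoxia-inducible paralog Ndufa4l2 at 3.61 ± 0.403 TPM. Among the 3 genes for the ring-forming c subunit of ATP synthase, Atp5g3 stood at 1023 ± 37.6 TPM, Atp5g1 at 337.1 ± 1.63 and Atp5g2 at 312.7 ± 16.2 TPM. The muscle and lung isoforms Cox6a2, Cox8b and Cox4i2 lay under the count limit, beside Cox6a1 at 918.4 TPM, Cox8a at 1108 TPM and Cox4i1.

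The promoters of these genes are known for binding sites of NRF1, a transcription factor of mitochondrial genes. RefSeq windows of GRCm38.p6, from 250 bases before to 50 bases after the transcript start, were matched for 75 of the 91 members (80 windows). The palindromic core of the NRF1 motif, CGCATGCG, was present in 11 windows, 13.8% against 1.87% of all 32851 windows: those of Atp5g2, Atp5j, Atp5k, Atp5l, Cox6a1, Ndufa8, Ndufa11, Ndufaf4, Ndufaf5, Uqcr11 and Uqcrc1. Searched on both strands, as all motifs were, the YY1 motif AAGATGGCG was in 10% of member windows against 1.4% of all, and the ERR motif TCAAGGTCA in 2.5% against 0.423%. The ETS motif CCGGAAGT of GABP was in 6.2% against 3.89%, CCAAT in 42.5% against 37.4%, and TATAAA in 8.8% against 13.6%. The 250 bases before the start of 5 members with the NRF1 motif (in capitals) follow, and those of Ndufa12, a member that departed from most others in its levels, in which no NRF1 match was found. All are 5′ to 3′ on the gene's strand. Ndufa12 shares the lack of a match with most members, since 11 of the 75 with a window held the motif. Atp5k and Ndufaf4 are shown because they lay near the opposite ends of the range in library PBS 2 described next, with the same 8 letters before both starts.
Atp5k, chr5:108434400-108434649, - strand: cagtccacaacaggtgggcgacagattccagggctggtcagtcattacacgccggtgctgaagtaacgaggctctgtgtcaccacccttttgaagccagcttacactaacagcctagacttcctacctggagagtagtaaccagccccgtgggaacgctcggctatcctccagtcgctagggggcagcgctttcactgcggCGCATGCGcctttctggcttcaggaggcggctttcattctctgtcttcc
Cox6a1, chr5:115348959-115349208, - strand: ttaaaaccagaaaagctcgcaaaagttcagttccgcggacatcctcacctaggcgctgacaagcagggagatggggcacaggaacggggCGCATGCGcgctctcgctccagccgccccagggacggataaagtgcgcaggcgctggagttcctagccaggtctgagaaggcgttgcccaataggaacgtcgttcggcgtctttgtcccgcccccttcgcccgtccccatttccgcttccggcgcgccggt
Atp5g2, chr15:102671048-102671297, - strand: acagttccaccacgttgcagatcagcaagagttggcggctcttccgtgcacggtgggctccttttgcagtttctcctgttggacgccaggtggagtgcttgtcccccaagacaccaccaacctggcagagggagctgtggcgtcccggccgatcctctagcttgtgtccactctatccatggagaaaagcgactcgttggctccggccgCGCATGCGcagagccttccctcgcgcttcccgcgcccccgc
Ndufa11, chr17:56717512-56717761, + strand: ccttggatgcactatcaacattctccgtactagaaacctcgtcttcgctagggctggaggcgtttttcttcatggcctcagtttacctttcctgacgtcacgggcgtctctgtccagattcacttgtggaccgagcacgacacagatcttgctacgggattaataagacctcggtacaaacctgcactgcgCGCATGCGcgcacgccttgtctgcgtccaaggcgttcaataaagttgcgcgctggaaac
Ndufaf4, chr4:24897833-24898082, + strand: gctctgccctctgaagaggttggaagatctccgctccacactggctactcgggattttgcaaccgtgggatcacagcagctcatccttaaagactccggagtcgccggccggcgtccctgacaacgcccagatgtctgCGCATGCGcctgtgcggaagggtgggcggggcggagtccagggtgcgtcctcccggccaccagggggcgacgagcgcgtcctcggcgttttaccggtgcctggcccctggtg
Ndufa12, chr10:94198785-94199034, + strand: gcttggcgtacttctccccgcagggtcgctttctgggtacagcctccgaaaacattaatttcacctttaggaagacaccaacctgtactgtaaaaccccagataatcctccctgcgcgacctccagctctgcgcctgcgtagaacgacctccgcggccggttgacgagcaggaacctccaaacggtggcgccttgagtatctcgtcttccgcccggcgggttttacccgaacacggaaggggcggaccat
The motif began 49 bases before the start in Atp5k, 161 in Cox6a1, 41 in Atp5g2, 59 in Ndufa11 and 112 in Ndufaf4. A match is a run of letters and shows no binding.

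PBS against normal asks how the chain's transcripts stood after the cisplatin course. All 91 members (84 with total-count scaling) had a log2 fold change below 0 against 49.7% of all genes, but none of the 91 passed the test (edgeR quasi-likelihood, Benjamini-Hochberg adjusted p under 0.05), which called 2.74% of all genes. The median log2 fold change was -0.30, and that of all genes tested was 0.00. At an unadjusted p under 0.05, 38 members were lower against 12.8% of all genes, and none was higher. In 69 of 91 members every PBS library lay below every normal library, against 20% of all genes, and in 0 of 91 every one lay above. This count depends on the scale: on the authors' deposited TPM, 3 of 91 (Atp5mpl, Ndufb4b and Ndufb4c) lay wholly below, against 5.57% of all genes, and 1 (Uqcrb) lay wholly above, against 37.4%. By mean log2(TPM + 1), 83 of 91 members were below normal against 27.1% of all genes. In bulk tissue, fewer cells rich in mitochondria and less of these transcripts per cell cannot be told apart.

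**Figure D1:**
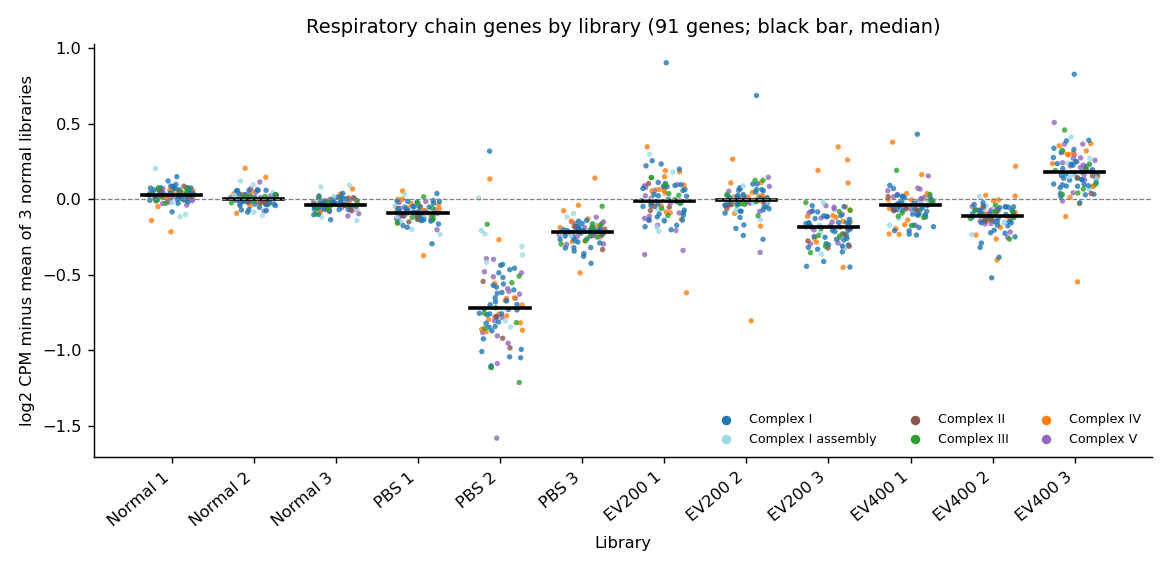
Each point is 1 of 91 genes in 1 library, as its log2 CPM minus its mean over the 3 normal libraries (vertical axis), with libraries along the horizontal axis, colours for complexes and black bars for medians. PBS 2 has a median of -0.717 and EV400 3 of 0.181, while the other PBS libraries have medians of -0.088 and -0.214.

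The sum of all members shows how unequally the PBS libraries contributed. It was 20000, 19710 and 19380 CPM in normal libraries 1, 2 and 3, and 18590, 12390 and 17140 CPM in the PBS libraries. All 3 PBS values lay below the normal values, but PBS 1 by far less than PBS 2, which held 62.9% of the normal mean. EV200 libraries summed to 20210, 19490 and 16890 CPM and EV400 libraries to 19050, 18270 and 22220 CPM. EV400 3 was the highest of the 12 libraries and EV200 3 the lowest after PBS 2, so the values of both vesicle groups spread to both sides of the normal range. PBS 2 was the lowest of 12 libraries for 88 of 91 members, and EV400 3 the highest for 67 of 91. Without PBS 2, 90 of 91 members still had a log2 fold change below 0, with a median of -0.14, and the PBS libraries lay below the normal ones in 71 of 91 members against 23.7% of all genes. That fit, in which 1 of all genes was called, left 2 members at an unadjusted p under 0.05. The shares of all genes below 0 and under that p were not computed for it, so these 2 counts lack a background.

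The tools differed widely on this comparison. DESeq2 called 2 members lower, Ndufb4b and Ndufa7, against 5.48% of all genes called lower. limma-voom with quality weights, which gave PBS 2 a weight of 0.163 and PBS 3 one of 3.47, called 56 members lower against 15.1% of all genes. Without PBS 1, edgeR called 9 members lower (Ndufa2, Ndufa7, Ndufa11, Ndufb4, Ndufb4b, Ndufb4c, Ndufb7, Ndufs7 and Sdhb) against 4.15% of all genes. Every member called in these fits was lower in PBS.

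Complex I, the largest complex, had a median log2 fold change of -0.31 over 38 genes, with 19 at an unadjusted p under 0.05. Its 7 core genes, for the subunits that carry electrons, had a median of -0.29, and its 29 accessory genes one of -0.31. The lowest member was Ndufb4b, a near-identical copy of the accessory gene Ndufb4 on chromosome 19. It stood at 10.9, 10.8 and 10.1 CPM in normal libraries and at 8.66, 5.15 and 7.92 CPM in PBS libraries. The groups did not overlap, and the log2 fold change was -0.55 ± 0.17 (SE; edgeR adjusted p = 0.0751). Ndufb4c, the other copy, followed at -0.50 ± 0.19 (adjusted p = 0.116), and Ndufb4 itself at -0.39 ± 0.15 (adjusted p = 0.124). Reads of these 3 genes may be split between copies, so their values are uncertain. Ndufa7, an accessory subunit, had the second smallest p of all members at -0.42 ± 0.15 (adjusted p = 0.0915). Ndufb8, an accessory subunit of the membrane arm and the most abundant complex I transcript, stood at 232.5, 223.6 and 218.9 CPM in normal and at 210.1, 133.0 and 194.5 CPM in PBS libraries.

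Within complex I the smallest differences were those of Ndufv2 and Ndufa12. Ndufv2, a core subunit with an iron-sulfur cluster, had a log2 fold change of -0.20 ± 0.13 (edgeR adjusted p = 0.296). Ndufa12, a late-joining accessory subunit, stood at 57.9, 49.2 and 49.9 CPM in normal and at 49.1, 65.1 and 40.2 CPM in PBS libraries. PBS 2 lay below the normal mean for 88 of 91 members, and Ndufa12 was 1 of 3 where it lay above, at 0.32 on the log2 scale, with Ndufa4l2 at 0.14 and Ndufaf4 at 0.01. The complex I assembly factors had a median of -0.21, and in PBS 2 they lay at -0.34, against -0.73 for complex I. Ndufaf8 and Ndufaf3 were the lowest at -0.39 ± 0.18 and -0.35 ± 0.16, and Ndufaf2, an assembly factor related to Ndufa12 by sequence, was the nearest to 0 at -0.10 ± 0.16 (adjusted p = 0.695), followed by Ndufaf5 at -0.12 ± 0.11. Ndufaf4, another assembly factor, stood at 48.2 CPM in PBS 2 and at 46.8 to 48.8 CPM in the normal libraries.

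All 4 genes of complex II, succinate dehydrogenase, had every PBS library below every normal library by CPM, as had 20% of all genes. Their median log2 fold change was -0.36. By TPM the groups overlapped in all 4 genes. PBS 1 lay above the normal libraries for Sdha, at 536 TPM against 498.6 to 529.9 TPM, and within the normal range for Sdhb, Sdhc and Sdhd. Sdhb, the iron-sulfur subunit, stood at 306.2, 296.8 and 283.5 CPM in normal and at 266.4, 149.4 and 234.7 CPM in PBS libraries, a log2 fold change of -0.45 ± 0.17 (edgeR adjusted p = 0.115). Sdhc and Sdhd, the membrane anchors, lay at -0.38 ± 0.17 and -0.34 ± 0.15. Sdha, the flavoprotein that oxidises succinate, lay at -0.26 ± 0.13 (adjusted p = 0.19). The standard errors of the 4 subunits overlapped.

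Complex III, the cytochrome bc1 complex, had a median of -0.33 over 9 genes. Its small subunits held both ends of the range. Uqcr10 stood at 172.7, 165.9 and 153.4 CPM in normal and at 150.8, 70.7 and 133.4 CPM in PBS libraries (log2 fold change -0.47 ± 0.21, edgeR adjusted p = 0.153), and Uqcrq lay at -0.42 ± 0.20. Uqcrb stood at 129.5, 124.8 and 126.0 CPM in normal and at 124.7, 113.1 and 122.7 CPM in PBS libraries, so that the groups parted only narrowly (-0.08 ± 0.11, adjusted p = 0.661). On the TPM scale Uqcrb parted in the opposite direction, with 401.1, 376.5 and 395.4 TPM in normal and 425.6, 418.5 and 427.3 TPM in PBS libraries. Cyc1, cytochrome c1, lay at -0.33 ± 0.14, and Uqcrh, the hinge protein, at -0.26 ± 0.13. Exons of Uqcrb overlap a gene on the opposite strand, and since the strand setting of the counting is not given in the sources used here, reads of the pair cannot be told apart.

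Complex IV, cytochrome c oxidase, had a median of -0.27 over 15 genes. Cox7a1 and Cox7a2 had the largest differences: Cox7a1 stood at 5.74, 5.17 and 5.65 CPM in normal and at 5.16, 3.17 and 3.93 CPM in PBS libraries (-0.44 ± 0.20, edgeR adjusted p = 0.161), and Cox7a2 lay at -0.39 ± 0.16 (adjusted p = 0.133). The difference of Cox7a2 is not there on the TPM scale, where it stood at 326.1, 249.9 and 350.8 TPM in normal and at 365.7, 231.0 and 340.3 TPM in PBS libraries. Their relative Cox7a2l, a factor for supercomplexes of the chain, stood at 97.5, 92.4 and 96.1 CPM in normal and at 99.1, 79.2 and 92.8 CPM in PBS libraries, with overlapping groups and a log2 fold change of -0.08 ± 0.10. Cox8a lay at -0.36 ± 0.17, Ndufa4 at -0.36 ± 0.15, Cox6a1 at -0.34 ± 0.17 and Cox6b1 at -0.33 ± 0.15. Cox4i1, Cox5a and Cox5b, nuclear-encoded subunits around the catalytic core, lay between -0.28 and -0.27. Cox6b2 lay at -0.27 ± 0.23 with overlapping groups, and Ndufa4l2 at -0.02 ± 0.28.

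Complex V had a median of -0.30 over 17 genes. Atp5b stood at 2723, 2714 and 2729 CPM in normal and at 2565, 1807 and 2392 CPM in PBS libraries, without overlap (-0.27 ± 0.14, edgeR adjusted p = 0.209). By TPM its groups overlapped, with PBS 1 at 2553 TPM above the normal libraries at 2389 to 2497 TPM. Atp5k, the small subunit e of the membrane part, stood at 96.8, 92.8 and 84.6 CPM in normal and at 83.5, 30.5 and 74.4 CPM in PBS libraries. PBS 2 was far below the other libraries here, at -1.58 against the normal mean on the log2 scale, the lowest of any member, and the fitted log2 fold change was -0.54 ± 0.27 (adjusted p = 0.197). Atp5e, the epsilon subunit of the rotor stalk, lay at -0.45 ± 0.20. The c-subunit genes Atp5g3, Atp5g2 and Atp5g1 lay at -0.38 ± 0.17, -0.36 ± 0.15 and -0.30 ± 0.14. The smallest differences were those of Atp5h and Atp5pb, stalk subunits d and b, at -0.18 ± 0.11 and -0.20 ± 0.11.

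**Figure D2:**
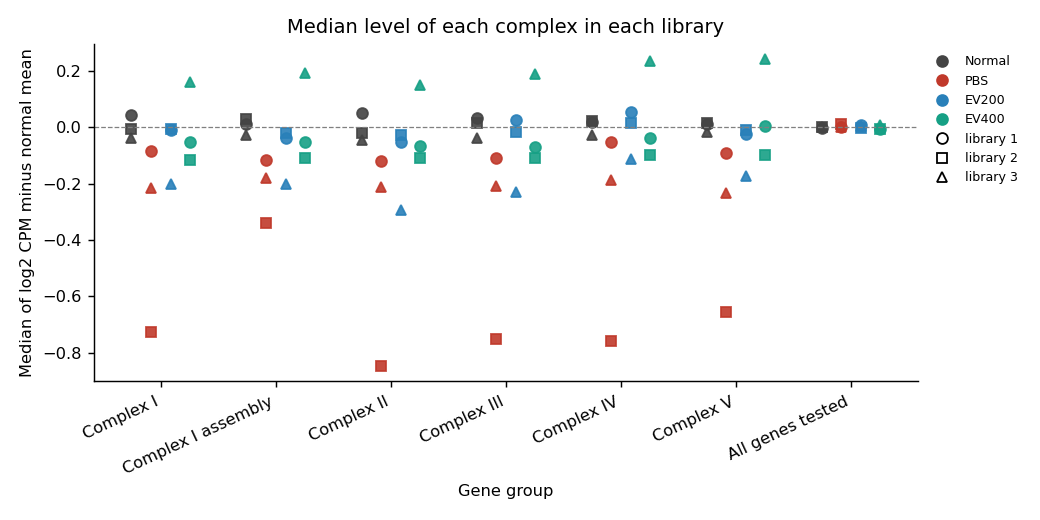
Median over the genes of each complex, and over all genes tested, of log2 CPM minus the normal mean (vertical axis), by gene group (horizontal axis), with colours for the 4 groups and symbols for libraries 1 to 3. In each complex PBS 2 is lowest and EV400 3 highest, and the assembly factors lie at -0.34 in PBS 2 against -0.847 to -0.654 for complexes I to V.

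**Figure D3:**
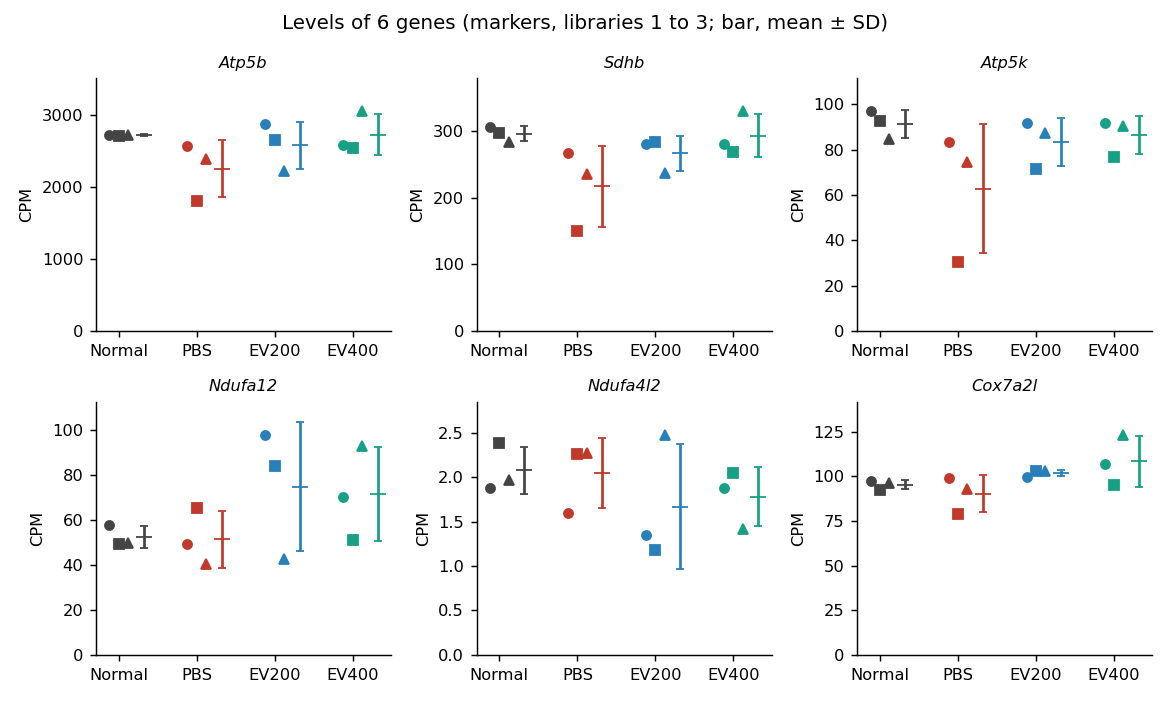
CPM of 6 genes in each library by group (symbols, libraries 1 to 3) with the mean ± SD over 3 libraries beside them and each axis from 0. Atp5b, Sdhb, Atp5k and Cox7a2l have their lowest value in PBS 2, while Ndufa12 and Ndufa4l2 do not. Cox7a2l lies between 79.2 CPM in PBS 2 and 123.1 CPM in EV400 3.

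EV200 against PBS asks how members stood with the lower vesicle dose after the same cisplatin course. It shares the PBS libraries with the comparison above, so values opposite in sign are not independent. Of the members, 89 of 91 had a log2 fold change above 0 against 49.5% of all genes, with a median of 0.26, but none was called by edgeR (0.016% of all genes were) and the smallest adjusted p was 0.657. At an unadjusted p under 0.05, 10 members were higher against 3.83% of all genes. In 12 of 91 every EV200 library lay above every PBS library, against 5.52% of all genes. This was counted on CPM alone. Without PBS 2 the median was 0.09, and without EV200 3 it was 0.31 with 64 members not overlapping against 17.4% of all genes. limma-voom with quality weights called 12 members, 11 of them higher, against 8.8% of all genes. The member called lower was Ndufa4l2 at -0.76 (limma-voom adjusted p = 0.0369).

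By complex, the medians for EV200 against PBS ran from 0.15 for the assembly factors to 0.29 for complex IV. Cox7a1 had the smallest p, with 5.35, 5.54 and 6.29 CPM in EV200 libraries, each above the PBS libraries (0.49 ± 0.20, edgeR adjusted p = 0.657). By TPM its groups overlapped narrowly, with EV200 1 at 26.21 TPM and PBS 1 at 26.32 TPM. Ndufa5, an accessory subunit of complex I, followed with 70.2, 70.6 and 64.0 CPM in EV200 and 62.9, 47.7 and 55.9 CPM in PBS libraries (0.30 ± 0.12). Sdhb, with 280.6, 282.8 and 236.2 CPM, overlapped the PBS libraries (0.30 ± 0.17). The members with a log2 fold change below 0 were Ndufaf4 at -0.01 and Ndufa4l2 at -0.30 ± 0.28, which stood at 1.34, 1.18 and 2.47 CPM in EV200 and at 1.59, 2.27 and 2.28 CPM in PBS libraries.

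For EV400 against PBS, 90 of 91 members had a log2 fold change above 0 against 47.1% of all genes, with a median of 0.34. None was called by edgeR, which called 0.0801% of all genes, and the smallest adjusted p was 0.147. At an unadjusted p under 0.05, 49 members were higher against 10.9% of all genes, and in 26 members the groups did not overlap against 12.2%. The overlap was counted on CPM alone. By TPM, the members' share of the total was 3.67% in PBS 1, above the 3.43 to 3.48% of the EV400 libraries. DESeq2 called 3 members higher, Atp5j, Atp5mpl and Ndufa5, against 2.94% of all genes, and limma-voom with quality weights called 16 against 5.85%. The shares of all genes were not computed for fits that left out PBS 2 and EV400 3 together. In that fit 77 of 91 members lay above 0 and 1 was at an unadjusted p under 0.05. The median was 0.18 without PBS 2, 0.25 without EV400 3 and 0.08 without both. Most of the median difference was thus absent without these 2 libraries.

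The medians for EV400 against PBS ran from 0.23 for the assembly factors over 0.33 for complex III and 0.34 for complex I to 0.38 for complexes II and V. Ndufa5 stood at 70.2, 63.6 and 86.1 CPM in EV400 libraries, each above the PBS libraries (0.40 ± 0.12, edgeR adjusted p = 0.147). By TPM its groups overlapped, with EV400 2 at 209 TPM and PBS 1 at 213.1 TPM. Atp5mpl, a small ATP synthase subunit, stood at 90.1, 73.8 and 115.1 CPM in EV400 and at 70.4, 53.1 and 70.5 CPM in PBS libraries (0.52 ± 0.16, adjusted p = 0.149). Atp5j, the coupling factor subunit, lay at 0.40 ± 0.12 and Ndufc2, a complex I accessory subunit, at 0.40 ± 0.13. Sdhb stood at 280.9, 268.9 and 329.0 CPM, above the PBS libraries (0.43 ± 0.17, edgeR adjusted p = 0.182). By TPM all its EV400 values, 452, 450.5 and 442.4 TPM, lay below PBS 1 at 461.7 TPM. Cox5a and Cox5b were the nearest to 0 in complex IV apart from Ndufa4l2: Cox5a stood at 153.8, 136.5 and 176.6 CPM in EV400 and at 174.1, 114.7 and 159.9 CPM in PBS libraries (0.06 ± 0.16), and Cox5b lay at 0.13 ± 0.17. Ndufa5, Atp5mpl, Atp5j, Ndufc2, Ndufa7, Ndufb4 and Ndufaf4 are not named by the rule for named genes, and were picked with their values in view.

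**Figure D4:**
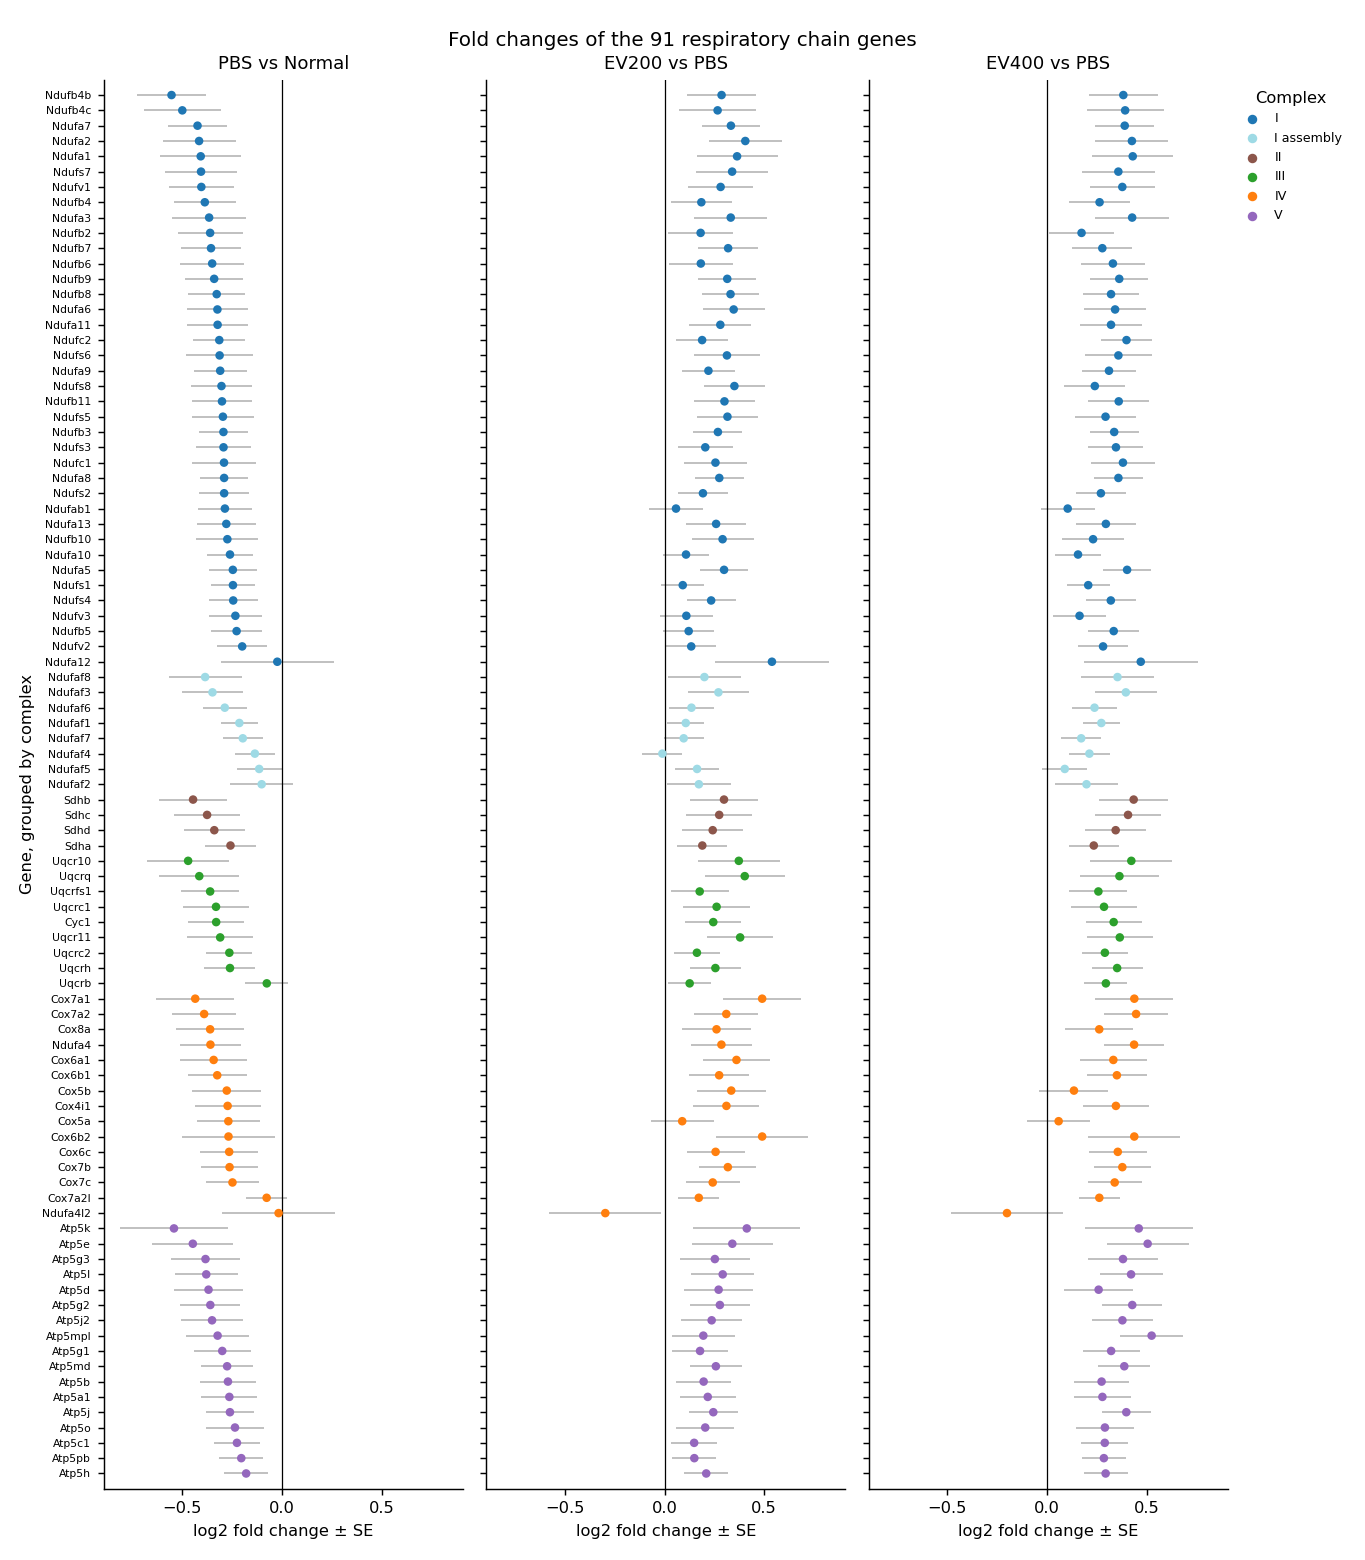
Log2 fold change of each of 91 genes (points, with bars of 1 SE) for PBS against normal, EV200 against PBS and EV400 against PBS (panels with the same horizontal axis), grouped and coloured by complex along the vertical axis. All 91 points lie below 0 in the first panel, and 89 and 90 lie above 0 in the others, which share the PBS libraries with it.

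Against normal, EV200 members had a median log2 fold change of -0.07, with 72 of 91 below 0 against 49.2% of all genes. EV400 members had one of 0.02, with 53 of 91 above 0 against 50.9%. When each library was left out, these medians ran from -0.08 to -0.013 for EV200 and from -0.052 to 0.072 for EV400. The sign for EV400 thus depended on single libraries. Of 91 members, 66 lay below the normal mean in EV400 1, 87 in EV400 2 and 5 in EV400 3. No member was called in either comparison, where edgeR called 0.0694% and 0% of all genes. At an unadjusted p under 0.05 there was no member in either, against 13.2% of all genes for EV200 and 6.98% for EV400. DESeq2 called 0 members in both, and limma-voom called Ndufa12 alone in EV200 against 3.24% of all genes called higher. This does not show equal levels. EV400 against EV200 had a median of 0.08, with 74 of 91 above 0 against 46.3% of all genes, and -0.01 without EV400 3. No member was called (0.00534% of all genes were), and only Ndufaf4 had an unadjusted p under 0.05, higher at 0.22 ± 0.10, against 2.53% of all genes. The joint test of any difference among the 4 groups called no member against 0.0641% of all genes. It had 5 members at an unadjusted p under 0.05 against 19.7% of all genes, and limma-voom called 32 against 35.4%.

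Ndufa12 and Ndufa4l2 departed from most other members in the vesicle groups. Ndufa4l2, with a mean count of 101.2, lay at -0.62, -0.80 and 0.26 in EV200 libraries against the normal mean on the log2 scale. Ndufa12 stood at 97.7, 84.0 and 42.6 CPM in EV200 and at 70.3, 51.0 and 92.6 CPM in EV400 libraries. EV200 thus held 2 values above and 1 below the normal Ndufa12 range of 49.2 to 57.9 CPM, and EV400 held 2 above and 1 within it. The highest Ndufa12 value was in EV200 1 and the lowest of the 12 in PBS 3. Its log2 fold change was 0.54 ± 0.29 for EV200 against PBS (edgeR adjusted p = 0.657), 0.47 ± 0.29 for EV400 against PBS (adjusted p = 0.31) and 0.51 ± 0.29 for EV200 against normal (adjusted p = 0.469). None passed the test. With limma-voom and quality weights, Ndufa12 was called for EV200 against normal at 0.65 (adjusted p = 0.0363). The same tool called it for EV200 against PBS at 0.96 (adjusted p = 0.0241) and for EV400 against PBS at 0.68 (adjusted p = 0.0234). It was also called in the joint test (limma-voom adjusted p = 0.0062). The weights were low for PBS 2 (0.163), where Ndufa12 was the highest of its group, and for EV200 3 (0.283), where it was the lowest.

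Other genes of the organelle, given by lists, did not pass the test either. For PBS against normal, none of 7 lists held a called gene. The 15 electron carriers had a median of -0.28 with all 15 below 0, led by Cycs, cytochrome c, at -0.39 ± 0.13 (edgeR adjusted p = 0.088), and Etfa, an electron transfer flavoprotein subunit, at -0.30 ± 0.11. The 23 import and carrier genes had a median of -0.24 with all 23 below 0, led by Cpt1a, which commits fatty acids to mitochondrial entry, at -0.41 ± 0.11 (adjusted p = 0.0547), and Tomm20, an import receptor, at -0.34 ± 0.10. Of the genes of the tricarboxylic acid cycle and pyruvate dehydrogenase, 20 of 21 lay below 0, with a median of -0.27 and Suclg2, a succinyl-CoA ligase subunit, at -0.31 ± 0.11 (adjusted p = 0.0929). Pdk2, a kinase that inhibits pyruvate dehydrogenase, lay at -0.36 ± 0.14. All 20 listed genes from the large subunit of the mitochondrial ribosome, a selection, lay below 0, with a median of -0.24. Among them Mrpl12 lay at -0.43 ± 0.15 (edgeR adjusted p = 0.0938) and Mrpl2 at -0.38 ± 0.14. Of 40 assembly factors outside the symbol rule, 39 lay below 0 with a median of -0.22. Sdhaf1, an assembly factor of complex II, lay at -0.50 ± 0.13 (adjusted p = 0.0576) and Acad9, which assists complex I assembly, at -0.38 ± 0.10 (adjusted p = 0.0586). Of 17 regulators of mitochondrial biogenesis, 10 lay below 0, with a median of -0.09. Esrra, which encodes the nuclear receptor ERR alpha, stood at 102.6, 98.5 and 102.3 CPM in normal and at 89.1, 49.6 and 79.3 CPM in PBS libraries (-0.48 ± 0.18, adjusted p = 0.106). Twnk, the helicase of mitochondrial DNA, lay at -0.23 ± 0.09.

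The 13 protein genes encoded by mitochondrial DNA did not share the low level of library PBS 2. Their sum was 159600, 172500 and 158900 CPM in normal libraries and 141600, 162100 and 144500 CPM in PBS libraries. PBS 2 thus had the highest value of its group, at 99.1% of the normal mean, where the nuclear-encoded members had 62.9%. For PBS against normal their median was -0.10 with all 13 below 0 and none called, and the smallest p were those of COX3 at -0.24 ± 0.14 and COX2 at -0.18 ± 0.13, both subunits of complex IV. EV400 3 had the highest sum of all libraries, 221400 CPM, or 135.3% of the normal mean.

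Markers of several cell types differed between libraries beside the members. The proximal tubule sum, 31870 to 32260 CPM in normal libraries, was 26000, 18650 and 24990 CPM in PBS libraries, 30060, 28210 and 21140 in EV200 and 27350, 28140 and 29020 in EV400 libraries. For PBS against normal 14 of 15 of these markers lay below 0 and 1 was called. PBS 2 held 58.1% of the normal mean of these markers beside 62.9% for the members. PBS 1 held 81% beside 94.3%, and EV200 3 held 65.9% beside 85.7%. EV400 3, the highest library for the members with 112.8%, held 90.5% of these markers, less than any normal library. The 8 macrophage markers summed to 256.4 to 356.5 CPM in normal, 561.9 to 1055 in PBS, 347.7 to 953.7 in EV200 and 257.4 to 484.6 CPM in EV400 libraries, with all 8 above 0 and 4 called for PBS against normal. The 7 fibroblast and pericyte markers summed to 115.9 to 122.7 CPM in normal and 170.5 to 488.9 CPM in PBS libraries, 2 of them called. Of the 7 thick ascending limb markers 5 were called higher, with sums of 2837 to 3254 CPM in normal and 3736 to 4331 CPM in PBS libraries. The 5 erythroid markers, 4 globin genes and the heme synthesis gene Alas2, summed to 765.2 to 942.7 CPM in normal, 284.4 to 458.3 in PBS, 545.5 to 892.6 in EV200 and 703.2 to 1164 CPM in EV400 libraries. All 5 were called lower for PBS against normal, at -1.23 to -1.15 (edgeR adjusted p of 0.0396 to 0.0436). None was called for EV200 against PBS (0.88 to 0.98) or EV400 against PBS (1.05 to 1.20). Their sum was lowest in PBS 2 and highest in EV400 3, as for the members. No marker of these 5 lists was at 0 in any library. The highest macrophage and fibroblast sums and the lowest proximal tubule sum were those of PBS 2. The part of these cell types in the members' levels was not tested.

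In several libraries the members' shifts also varied with transcript length and base composition. The members' transcripts are short, with a median of 838 bases against 2814 for all genes tested (89 of 91 members and 83.1% of all genes had a GENCODE transcript). For each gene a single matched transcript was used, the first by identifier, which need not be the form expressed in kidney. Lengths and GC content of single genes, such as 4715 bases for Atp5g1, are therefore uncertain. Over these 89 members, which share this library and its normal baseline, the shift of PBS 2 had a Spearman rho of -0.48 with GC content and 0.38 with length. Over 15562 genes the values were -0.25 and 0.26. In PBS 3 they were -0.33 and 0.30 over the members and -0.01 and 0.13 over all genes. In EV400 3 they were -0.41 and -0.19 over the members and -0.17 and -0.32 over all genes. In EV200 3 the members' rho with length had the opposite sign to PBS 2, at -0.48, with -0.03 for GC content. Other genes at least as abundant as all but the lowest members had a median PBS 2 shift of -0.50 where the transcript was under 1000 bases (481 genes) and of -0.10 where it was longer (8516 genes), beside -0.70 for the 89 members. The 481 other short genes and the members lay at -0.17 and -0.21 in PBS 3, at -0.07 and -0.09 in PBS 1, and at 0.19 and 0.18 in EV400 3. In EV200 3 they lay at -0.10 and -0.18. The 86 cytosolic ribosomal protein genes, also short, lay at -0.37 in PBS 2 and at 0.16 in EV200 3. These sets were chosen after seeing the data, and the part of length and GC content in the members' levels was not tested.

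**Figure D5:**
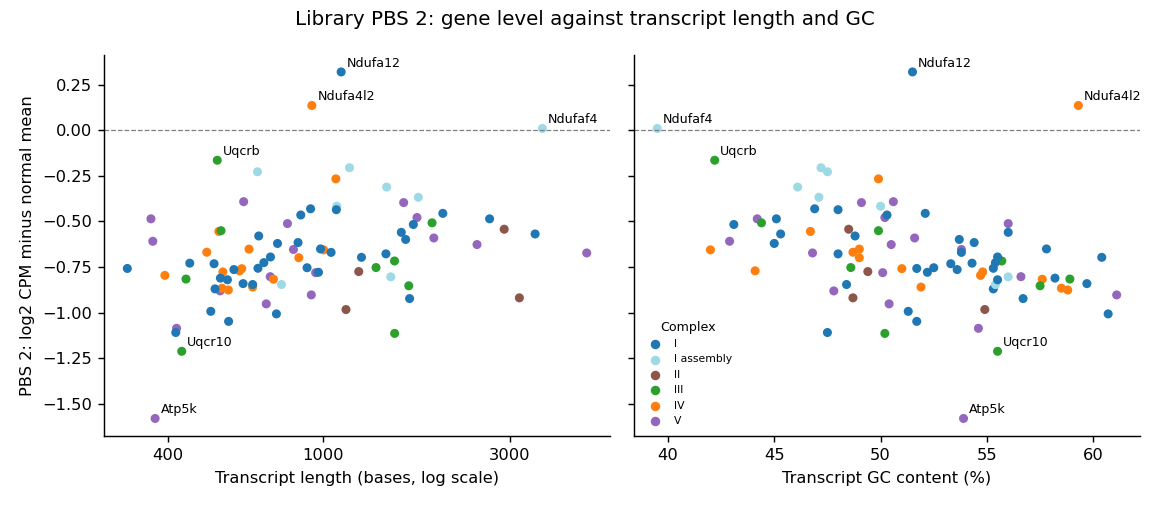
Log2 CPM of library PBS 2 minus the normal mean (vertical axis) for 89 genes against transcript length in bases on a log axis (left) and GC content in percent (right), coloured by complex. Atp5k lies lowest at -1.58, and Ndufaf4, Ndufa4l2 and Ndufa12 lie above 0.

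The scaling of libraries changes the size of these differences. TMM factors ran from 0.891 in EV400 3 to 1.12 in PBS 2. With total counts alone, the median of all genes for PBS against normal moved to 0.17 and that of the members to -0.14, with 84 of 91 below 0. A scaling factor moves all genes of a library alike. Total counts therefore cannot test the distance between the members and the other genes. The 7 above 0 included Ndufa12, Ndufa4l2, Uqcrb, Cox7a2l, Ndufaf2 and Ndufaf5. For EV200 against PBS total counts moved the median of all genes to -0.07 and that of the members to 0.20, and for EV400 against PBS to -0.17 and 0.19. With log2(TPM + 1) the median of all genes for PBS against normal was 0.13 and that of the members -0.13. The 8 members above 0 on that scale were Atp5h, Cox7a2, Cox7a2l, Ndufa12, Ndufa4l2, Ndufaf2, Ndufaf4 and Uqcrb. On the authors' TPM scale the members made up 3.43 to 3.57% of the total in normal, 3.67, 2.56 and 3.41% in PBS, 3.49 to 3.78% in EV200 and 3.43 to 3.48% in EV400 libraries. On that scale PBS 2 alone stood apart, PBS 1 lay above all normal libraries, and EV400 3 did not stand out.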

How the data were processed

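Kidney RNA of 12 libraries was prepared with a stranded mRNA kit and sequenced in read pairs of 101 bases, as the labels' protocols state. The submitters' processing notes name HISAT2 2.1.0, StringTie 2.1.3b, FastQC 0.11.7 and Trimmomatic 0.38, with builds GRCm38 and mm10. Which program counted the reads, with which strand setting and annotation, is not given in the sources used here. Read counts, FPKM and TPM per gene and library are in the 1 table the authors deposited. Counts were the basis of every test, TPM gave levels between genes, and FPKM was not used.

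Samples were grouped by their labels. Counts of all 12 libraries entered 1 fit in R 4.3.3 with the quasi-likelihood F test of edgeR 4.0.16, TMM scaling and the default expression filter by group, which left 18730 genes. Adjusted p is Benjamini-Hochberg over these, and a gene is called under 0.05. CPM uses TMM-scaled library sizes. SE is the log2 fold change divided by the square root of F. The shift of a library is log2 CPM minus the mean of the normal libraries. No 2 libraries were identical in their counts. The code was tested on simulated counts.

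The members and lists were chosen with earlier results of these data known. Named members were, per complex, the 2 largest differences in each direction for PBS against normal and the highest mean TPM, then the isoform pairs, complex II, Cyc1, Cox5a and Cox5b, and 2 genes of smallest p per list. Of the list genes, Coa1 was not analysed here, and 13 of 100 markers, all of adipocytes, brown adipocytes or skeletal muscle, did not pass the filter. Alternatives were DESeq2 1.42.0 and its size factors, limma-voom (limma 3.58.1) with quality weights, other filters, a fit without mitochondrially encoded genes, a fit of the compared groups alone, the replicate number as a block, log2(TPM + 1) and leaving out each library. Total-count scaling and leaving out PBS 2 with EV400 3 or EV200 3 were chosen after seeing the data, as was the count of members whose groups do not overlap on the TPM scale.

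Coordinates and promoter sequences are from RefSeq tables of GRCm38.p6. Of the members, 90 were found in GENCODE vM21, where exons of 5 overlap another gene on the same strand and those of 29 a gene on the opposite strand.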

Additional observations from a re-analysis of the deposited data

Results flagged for a closer look

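Cox4i2, the lung and hypoxia isoform that lay under the count limit, had 31 counts in library PBS 2, or 0.447 CPM with an exact Poisson 95% interval of 0.304 to 0.635, above the highest normal library at 0.287 CPM. PBS 2 did not stand alone: EV400 2 had 21 counts, or 0.435 CPM, and PBS 1 had 0.331 CPM, while the other libraries outside the normal group had 0.188 to 0.314 CPM. Cox8b, a heart and muscle isoform also under the limit, had 10 counts in library PBS 3, or 0.167 CPM with an interval of 0.0803 to 0.308, against at most 0.0623 CPM in normal libraries. Both were picked out because a gene outside the members showed more signal than the normal libraries. Cox4i2 passed the expression filter and was among the genes tested, and Cox8b was not. The intervals cover counting error only. PBS 3 is also the library with adipocyte markers at 115.7 CPM and with 4 brown adipocyte markers summing to 2.33 CPM, against at most 0.188 CPM in the other libraries. The part of either in Cox8b was not tested.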

How the results depend on the processing

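The median log2 fold change of the members kept its direction in every alternative run for PBS against normal (-0.438 to -0.143 when leaving out each library), for EV200 against PBS (0.089 to 0.388) and for EV400 against PBS (0.176 to 0.459). With TPM the medians of these were -0.13, 0.192 and 0.132. Counts of called members depended on the tool and on single libraries. edgeR as reported called 0 members in all 7 tests. DESeq2 called 2 for PBS against normal and 3 for EV400 against PBS. limma-voom with quality weights called 56, 12 and 16 for PBS against normal, EV200 against PBS and EV400 against PBS, 1 for EV200 against normal, and 32 in the joint test. Leaving out each library gave 0 to 9 for PBS against normal, the 9 without PBS 1, and 0 elsewhere. The median moved by more than the spread of the libraries for EV200 against normal, to 0.026 with total counts and 0.038 with TPM, and for EV400 against EV200, to -0.059 with TPM. The cause was not tested.

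The replicate block called 0 members in every test, with medians of -0.316, 0.276, 0.346, -0.073, 0.015 and 0.079 in the order PBS against normal, both doses against PBS, both against normal, and dose against dose. No sign was seen that the numbers pair the samples. Deviations of the 18 same-numbered pairs of libraries correlated at -0.385 to 0.344, and those of the 36 other pairs at -0.459 to 0.494. Of 12 libraries, 2 correlated best with their own number. With 3 libraries a group this cannot exclude a pairing.

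Named members changed sign in 34 combinations of member, comparison and setting. In 1869 combinations sign and call stayed the same, and in 35 the sign stayed and the member was called. For PBS against normal, total counts gave 0.087 for Cox7a2l, 0.152 for Ndufa12, 0.157 for Ndufa4l2, 0.063 for Ndufaf2, 0.052 for Ndufaf5 and 0.09 for Uqcrb. Ndufa4l2 came to 0.003 with a mean count of at least 50 and to 0.076 with limma-voom. Leaving out each library gave -0.22 to 0.124 for Ndufa12, -0.102 to 0.129 for Ndufa4l2 and -0.151 to 0.02 for Cox7a2l. For EV400 against PBS, Cox5a came to -0.073 with limma-voom, -0.088 with total counts and -0.099 to 0.183 when leaving out each library, Cox5b to -0.009 with total counts and -0.035 to 0.297, and Ndufaf5 to -0.062 with total counts. For EV200 against PBS, leaving out each library gave -0.067 to 0.213 for Cox5a. Without PBS 2 and EV400 3, Cox7a2l came to 0.019 for PBS against normal, Cox5a to -0.066 for EV200 against PBS, and for EV400 against PBS Cox5a to -0.193, Cox5b to -0.113, Cox8a to -0.03, Ndufa4l2 to 0.027, Ndufaf2 to -0.039 and Ndufaf5 to -0.037. Without PBS 2 and EV200 3, Cox7a2l came to 0.014 for PBS against normal, and Cox5a to -0.096 and Cox5b to -0.032 for EV400 against PBS. None of these was called as reported. The cause was not tested.

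With 3 libraries a group the number of libraries limits precision, and Cox6b2, with the lowest mean count of the members at 96.8, is limited by counting error as well.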

Other observations

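Among the other protein-coding genes under the count limit, Cox6a2, the heart and muscle isoform, had 43, 43 and 47 counts in normal libraries, 20, 31 and 48 in PBS, 53, 40 and 40 in EV200 and 37, 37 and 34 in EV400 libraries. Cox7b2 and Cox8c had 0 counts in all 12 libraries, each of which allows up to 3 counts at the limit that a count of 0 gives.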
